A study of Mus musculus with 1457 samples.

Results

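A set of 6 genes of the adhesion G protein-coupled receptor (adhesion GPCR) family were followed across sorted single cells of the mouse aorta-gonad-mesonephros region (AGM), the embryonic site where blood stem cells emerge from the dorsal aorta. The 6 genes were Adgrg1, Adgrg3, Adgrf5, Adgrl2, Adgrl4 and Adgre5, out of 36131 genes held whole in both deposited count tables. They were named from measured values of these cells, because Adgrg1 was higher and Adgrg3 lower in hemogenic endothelium (HE) and Adgrg1 was higher with the GFI1 reporter. Those differences are therefore given as descriptions, with no test. The series held 1457 cells of ICR embryos in 19 groups, profiled one cell per well by Smart-seq2, which sequences full-length cDNA.

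The sorts placed cells along the change of endothelium into blood, in embryos heterozygous for a Tomato allele of Gfi1 and a GFP allele of Gfi1b. At E10.5 these gave 74 endothelial (Endo) cells without KIT, CD41 or either reporter, 95 HE cells with the GFI1 reporter in the same gate, 41 cells in transition (EHT) with KIT, CD41 and the GFI1 reporter, and 42 intra-aortic cluster (IAHC) cells that also carried the GFI1B reporter. All of these gates required CDH5 and excluded TER119 and CD45. The same line gave 16 Endo, 40 HE and 22 IAHC cells at E11.5. A further 41 Endo, 43 HE and 42 EHT cells had E11.5 in the title but E10.5 in the stage field and are called titled E11.5. Embryos homozygous for both reporter alleles (Gfi1/Gfi1b KO) gave 42 HE cells at E10.5. In a second E10.5 line with an RFP allele of Runx1b, heterozygous embryos gave HE cells (17.98% of all cells of the series), 53 Endo cells and mesenchymal cells (Mes, CDH5-negative RUNX1b+, 7.34% of all cells), and homozygous (KO) embryos gave 91 Mes cells. Another large group of HE cells of this line (19.01% of all cells) was titled KO while the genotype field was heterozygous, and they are called titled KO. A separate E10.5 experiment on embryos heterozygous for the Gfi1 Tomato allele alone sorted 39 ACE+GFI1+ cells, ACE+GFI1- cells (7.96% of all cells) and 14 ACE-GFI1- cells, using angiotensin-converting enzyme (ACE) on the surface of CDH5+ cells. The heterozygous cells, which served as controls, thus also carried reporter alleles, and no group was wild type. The embryo of a cell is not named in the labels. A group therefore stands as 1 sample here, and cells were not treated as replicates.

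Adhesion GPCRs combine a long extracellular region that binds matrix or partner cells with a membrane-spanning region that signals through G proteins, and most of them cleave themselves between these regions. Adgrg1 encodes GPR56, which signals through the G12/13 proteins to the GTPase RhoA and is known as a surface marker of blood stem cells. Its zebrafish counterpart is needed for blood stem cells to form in the aorta. Adgrg3 encodes GPR97, a close relative known in neutrophils and lymphatic endothelium. Adgrf5 (GPR116) and Adgrl4 (ELTD1) are receptors of endothelium, Adgrl2 encodes latrophilin-2, which binds teneurins and FLRT proteins, and Adgre5 encodes CD97, a receptor of leukocytes that binds CD55.

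Adgrg1 and Adgrg3 are neighbours. In the GENCODE annotation of GRCm38, Adgrg1 lies at chr8:94974751-95014217 on the plus strand and Adgrg3 at chr8:95017692-95045250 on the same strand. The end of the first and the start of the second are 3474 bases apart, with 0 annotated genes between them. Adgrg5, another member of that subfamily, ends 31470 bases before Adgrg1. The others lie apart, with Adgrf5 at chr17:43360451-43459557 on the plus strand, Adgrl2 at chr3:148815583-148990555 on the minus strand and Adgrl4 at chr3:151437887-151545086 on the plus strand. Adgre5, at chr8:83723251-83741326 on the minus strand, overlaps Ddx39 on the plus strand by 3642 bases. The strand setting of the counting is not given in the sources used here, so reads in that overlap, and reads of Adgrl2 and the antisense gene Gm43573, cannot be told apart.

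The promoters of Adgrg1 and Adgrg3 are shown because these neighbours had opposite levels in HE. They are RefSeq sequences of GRCm38.p6 that run from 250 bases before to 50 bases after a start site, written 5′ to 3′. Adgrg1 has 2 such entries, at chr8:94976859-94977158 and chr8:94984149-94984448, and Adgrg3 has 1, at chr8:95017442-95017741, all on the plus strand. Capitals mark matches on either strand to 4 core motifs, which were TGTGGT for RUNX, AGATAA for GATA factors, AGGAAG for ETS and AAATCA for GFI1, and no matches shown overlap.
Adgrg1 first promoter: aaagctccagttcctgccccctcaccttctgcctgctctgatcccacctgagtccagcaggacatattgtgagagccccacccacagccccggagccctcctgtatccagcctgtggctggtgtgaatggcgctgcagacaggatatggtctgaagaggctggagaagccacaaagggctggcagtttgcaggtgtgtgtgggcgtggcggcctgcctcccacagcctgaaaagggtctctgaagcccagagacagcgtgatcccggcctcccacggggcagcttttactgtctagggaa
Adgrg1 second promoter: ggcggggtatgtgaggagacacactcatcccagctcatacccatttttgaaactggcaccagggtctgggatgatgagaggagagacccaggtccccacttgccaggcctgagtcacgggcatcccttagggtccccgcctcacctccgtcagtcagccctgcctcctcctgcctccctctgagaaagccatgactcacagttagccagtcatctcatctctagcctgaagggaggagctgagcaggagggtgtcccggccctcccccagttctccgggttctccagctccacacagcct
Adgrg3 promoter: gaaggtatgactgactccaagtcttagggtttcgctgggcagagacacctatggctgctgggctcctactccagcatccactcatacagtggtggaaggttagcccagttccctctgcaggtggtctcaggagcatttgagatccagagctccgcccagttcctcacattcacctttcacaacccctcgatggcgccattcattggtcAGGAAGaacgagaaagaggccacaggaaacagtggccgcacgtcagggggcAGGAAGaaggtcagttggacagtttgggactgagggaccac
The Adgrg1 promoters held 0 matches, and the Adgrg3 promoter held 2, both to the ETS core. Of 32851 mouse promoters of this length, 35.4% held the ETS core, 16.8% the RUNX core, 14% the GFI1 core and 11.2% the GATA core. The ETS core was also found in promoters of Adgrf5, Adgrl2 and Adgrl4, the GFI1 core in those of Adgrf5 and Adgrl2, and the RUNX core in that of Adgrl2. These are letter matches in a fixed window and nothing about binding was measured.

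Group totals ranged from 14577594 to 199887490 reads, and single cells had 12 to 5652968 reads (median 598000). Levels are a group's summed reads of a gene per 1000000 of all its reads (CPM), and intervals are exact Poisson or Clopper-Pearson intervals at 95%, which cover counting error only. Fewer cells expressing a gene and less RNA per cell cannot be told apart in such sums, so shares of cells with a read are given beside them. Several groups held cells that went against their gate. Cells whose globin genes took at least 1% of their reads, called erythroid-like, were 14 of 22 E11.5 IAHC cells, 16 of 95 E10.5 HE cells, 11.8% of the Runx1b heterozygous HE cells and 4 of 42 Gfi1/Gfi1b KO HE cells. The 11 erythroid markers summed to 482086 CPM in E11.5 IAHC, against 13.8 CPM in E10.5 IAHC, and the median E11.5 IAHC cell had reads of 2.5 of 20 pan-endothelial genes. Only 50% of the Runx1b heterozygous HE cells had reads of at least 10 of those 20 genes, and the 12 mesenchyme markers summed to 4982 CPM there, where the titled KO HE cells had 107.4 CPM. Levels and shares are of all cells unless stated, ratios without such cells are given beside many results that leaving them out changed, and the part of these cells in other values was not tested.

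Along the 4 E10.5 sorts, the Adgrg1 level was 4.1 CPM in Endo and 161.6 CPM in HE, and it reached 640.9 CPM in EHT, close to the 612.1 CPM of IAHC. Reads of Adgrg1 were found in 8 of 74 Endo cells (10.8%, interval 4.78 to 20.2%), 75 of 95 HE cells (78.9%, 69.4 to 86.6%), and in all 41 EHT and all 42 IAHC cells. Per cell, HE ranged from 0 to 842.4 CPM with a median of 71.7, EHT from 119.8 to 1175 with a median of 668 and IAHC from 216.5 to 1096 with a median of 640.03. HE cells thus ranged from 0 CPM, the median of the Endo cells, to above the median of the EHT cells. The 5 richest HE cells held 27.9% of the Adgrg1 reads of HE. Without the 16 erythroid-like cells the HE level was 200.7 CPM, with reads in 62 of 79 cells. Other cells that went against the gate may remain among them, and their part in the range was not tested. Runx1, the transcription factor that starts the transition, had 0 reads in Endo, 61.4 CPM in HE, and then 233.7 CPM in EHT, above the 183.9 CPM of IAHC.

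**Figure D1:**
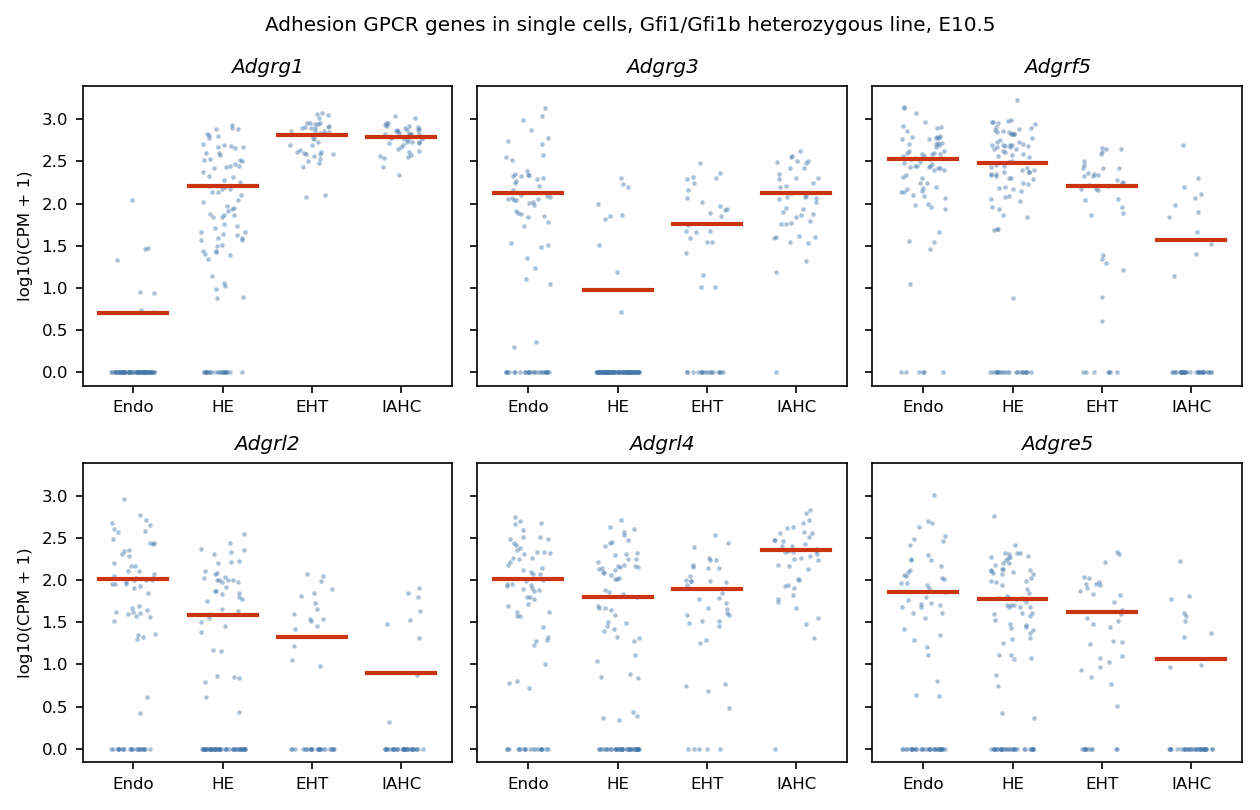
Level of each of the 6 genes in single cells of the 4 E10.5 sorts of the Gfi1/Gfi1b heterozygous line, on the scale log10(CPM + 1), with 1 point per cell and a red bar at the level of the summed reads. Adgrg1 is at 0 in most Endo cells and above 100 CPM in all EHT and IAHC cells, whereas Adgrg3 is at 0 in most HE cells.

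Adgrg3 ran through a trough. Its level was 133.4 CPM in Endo but only 8.54 CPM in HE, then 56.9 CPM in EHT, and in IAHC it stood at 134.1 CPM. Reads were found in 49 of 74 Endo cells (66.2%, 54.3 to 76.8%), 10 of 95 HE cells (interval 5.16 to 18.5%), 25 of 41 EHT cells (61%, 44.5 to 75.8%) and 41 of 42 IAHC cells (97.6%, 87.4 to 99.9%). The Poisson intervals of the levels in IAHC and Endo overlapped, while the share of cells with a read was higher in IAHC. Per cell, Endo ranged from 0 to 1365 CPM with a median of 68.7 and IAHC from 0 to 418.9 CPM with a median of 112.96, whereas the median HE cell had 0 CPM. With every cell thinned to 100000 reads the shares were 64.4% in Endo, 9.47% in HE, 61% in EHT and 97.6% in IAHC.

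In Endo and HE of the Gfi1/Gfi1b line at E10.5, few cells had reads of both neighbours. Of the 74 Endo cells, 46 had reads of Adgrg3 only, 5 of Adgrg1 only, 3 of both and 20 of neither. Of the 95 HE cells, 68 had Adgrg1 only, 7 both, 3 Adgrg3 only and 17 neither. In EHT 25 of 41 cells had both and 16 had Adgrg1 only, and in IAHC 41 of 42 had both. Among the 42 titled E11.5 EHT cells, 12 had both and 30 had Adgrg1 only. Every cell of these 3 groups had reads of Adgrg1, so a cell with Adgrg3 alone could not occur there. Endo cells of the other sorts were more mixed, since 17 of 53 Runx1b Endo cells and 6 of 14 ACE-GFI1- cells had both. Whether cells with both were fewer or more than the share of each gene alone would give was not tested.

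**Figure D2:**
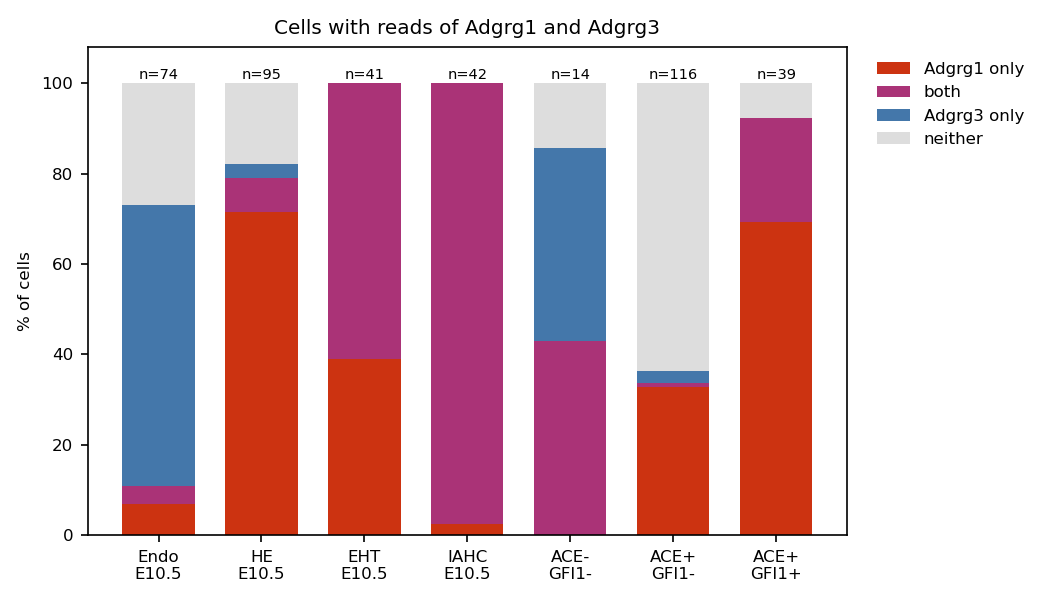
Share of cells with reads of Adgrg1 only, of both genes, of Adgrg3 only and of neither, in the 4 E10.5 sorts of the Gfi1/Gfi1b heterozygous line and in the 3 ACE sorts, with the number of cells above each bar. Cells with Adgrg3 only fill 46 of the 74 Endo cells, cells with Adgrg1 only 68 of the 95 HE cells, and cells with both 41 of the 42 IAHC cells.

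The endothelial receptors and CD97 followed other courses over the same 4 sorts. Adgrf5, from Endo through HE and EHT to IAHC, had levels of 339.6, 300.1, 160.97 and 35.8 CPM, and the share of cells with a read was 91.9% in Endo and 28.6% in IAHC. The levels of Adgrl2 in the same order were 102.5, 37.7, 20.4 and 6.92 CPM. Those of Adgre5 were 71, 58.8, 40.8 and 10.6 CPM. These 3 genes were thus lower at each step of the order in the sums of all cells, like the summed pan-endothelial markers, with 11883, 8969, 4832 and 2745 CPM. Without erythroid-like cells the log2 ratio of HE over Endo was 0.22 for Adgrf5 and 0.13 for Adgre5, so the first step holds only for Adgrl2, with -1.06. Adgrl4 did not follow them, since its level was highest in IAHC, with 101.2, 61.9, 77.2 and 224.8 CPM from Endo to IAHC. In these sums of all cells Adgrl4 was lowest in HE, but without erythroid-like cells its HE level was 81.8 CPM, above that of EHT. Its reads were found in 41 of 42 IAHC cells, with a median of 208.3 CPM per cell. Scaled by length, the level in EHT was 118.2 CPM per kb of exon for Adgrg1, 17.9 for Adgrf5, 16.8 for Adgrl4, 10.9 for Adgre5, 8.24 for Adgrg3 and 1.44 for Adgrl2. In Endo the order of levels per kb was Adgrf5 with 37.7, Adgrl4 with 22.1, Adgrg3 with 19.3, Adgre5 with 18.9, Adgrl2 with 7.22 and Adgrg1 with 0.757.

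HE and Endo were both sorted in 4 sets, 1 at E10.5 and 1 at E11.5 from the Gfi1/Gfi1b heterozygous line, the Runx1b heterozygous line, and the ACE experiment with ACE+GFI1+ as HE and ACE-GFI1- as Endo. The members were chosen on this contrast, so no test was made. Adgrg1 had 161.6 CPM in HE and 4.1 CPM in Endo of the E10.5 set, 348.5 CPM in HE and 0.0444 CPM (2 reads) in Endo of the E11.5 set, and 235.3 CPM in ACE+GFI1+ and 3.57 CPM in ACE-GFI1- cells. In the Runx1b set it had 23.9 CPM in HE and 21 CPM in Endo. The Runx1b set therefore stood apart from the other 3, with a log2 ratio of 0.19 that became -0.34 without erythroid-like cells and -0.06 with thinned cells, and 0.55 among cells with at least 10 of 20 pan-endothelial genes. Over the 4 sets the level was 192.3 ± 136.05 CPM in HE and 7.18 ± 9.39 CPM in Endo (SD, n = 4), with a mean log2 ratio of 5.97 ± 4.99 in which the 2 reads of E11.5 Endo were set to 3 reads. Without the E11.5 set the mean log2 ratio was 3.84 ± 3.19. The Endo range of 0.0444 to 21 CPM and the HE range of 23.9 to 348.5 CPM did not overlap, which held in this direction for 7.73% of 11298 genes with at least 5 CPM. The highest Endo and the lowest HE level were both of the Runx1b set, and without erythroid-like cells that HE level was 16.6 CPM, so the ranges then overlapped. The titled E11.5 cells, which entered none of these sets, had 216.3 CPM in HE and 58.9 CPM in Endo.

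Adgrg3 had 8.54 CPM in HE and 133.4 CPM in Endo of the E10.5 set, and 5.18 CPM in HE and 165.5 CPM in Endo of the E11.5 set. It had 1.35 CPM in HE and 213.5 CPM in Endo of the Runx1b set, and 3.76 CPM in ACE+GFI1+ and 205.2 CPM in ACE-GFI1- cells. The groups were far apart in every set, with 4.71 ± 3.01 CPM in HE and 179.4 ± 37.1 CPM in Endo (SD, n = 4) and a mean log2 ratio of -5.51 ± 1.41. In the titled E11.5 cells it had 2.45 CPM in HE and 84.5 CPM in Endo. Adgrl2 averaged 54.6 ± 16.1 CPM in HE and 115.6 ± 21 CPM in Endo (SD, n = 4), and was lower in HE in each set by log2 ratios between -0.58 and -1.66. The HE levels of Adgrl2, 37.7 to 72.4 CPM, lay below all Endo levels, 95.1 to 141.7 CPM. Adgrg3 was also lower without overlap, and so were 6.86% of the 11298 genes. The other members overlapped between the sorts. Adgrf5 averaged 291.6 ± 96.2 CPM in HE and 316.6 ± 45.9 CPM in Endo, Adgrl4 90.7 ± 45.9 CPM in HE and 125.3 ± 22.3 CPM in Endo, and Adgre5 91.6 ± 30.7 CPM in HE and 63.6 ± 15.5 CPM in Endo (SD, n = 4 each). In the Runx1b set their log2 ratios of -1.11 for Adgrf5, -1.37 for Adgrl4 and 0.11 for Adgre5 were -0.02, -0.27 and 1.11 among cells with at least 10 pan-endothelial genes. At least 2-fold higher in HE in all 4 sets were 0 of 6 members, against 4.36% of those genes, since Adgrg1 missed the fold in the Runx1b set. At least 2-fold lower in all 4 sets was 1 of 6, Adgrg3, against 2.12% of those genes.

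**Figure D3:**
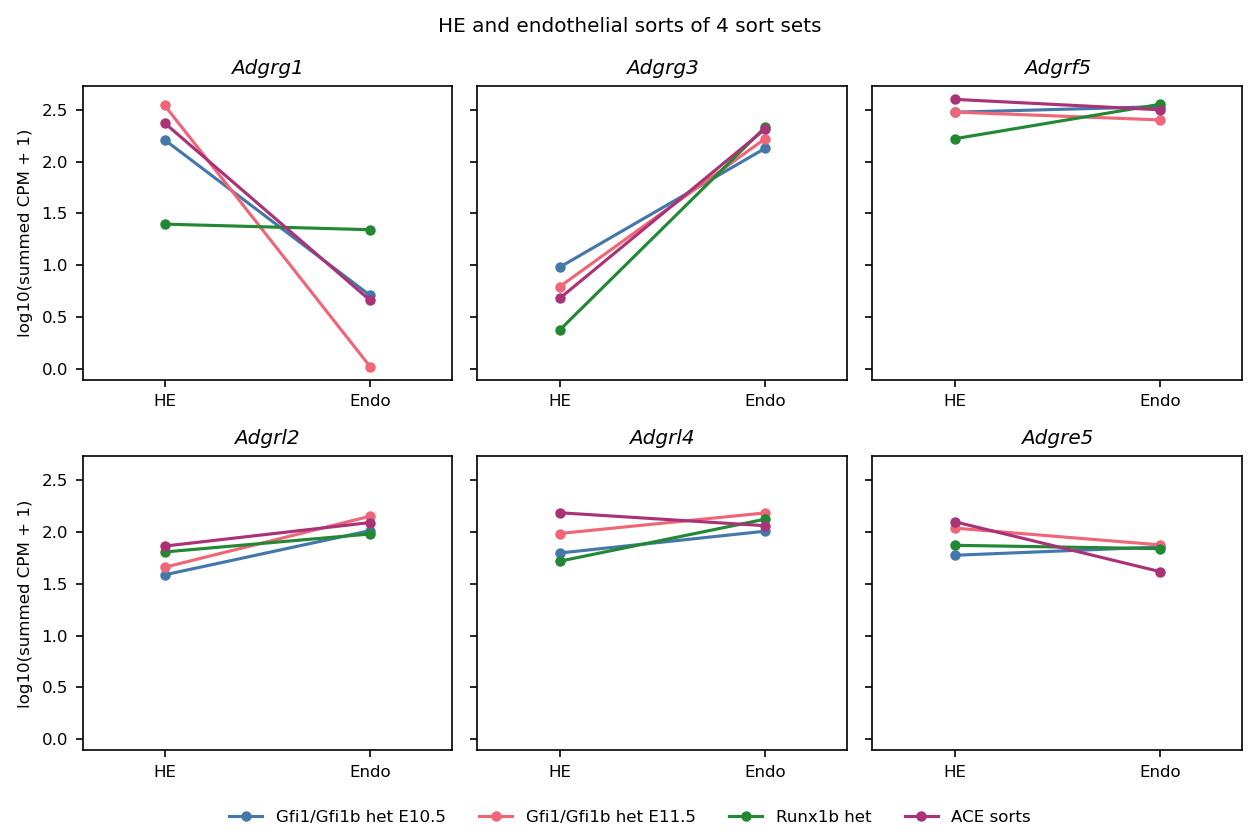
Level of each gene in the HE and Endo sums of 4 sort sets on the scale log10(summed CPM + 1), with 1 line per set. Adgrg1 is higher in HE with a nearly flat line in the Runx1b set, Adgrg3 and Adgrl2 are lower in HE in all 4 sets, and the lines of Adgrf5, Adgrl4 and Adgre5 cross.

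The ACE experiment separated the surface enzyme from the GFI1 reporter. Adgrg1 had 235.3 CPM in ACE+GFI1+ cells and 33.1 CPM in ACE+GFI1- cells, a log2 ratio of 2.83 (2.75 to 2.90), and reads in 36 of 39 ACE+GFI1+ cells and 33.6% of ACE+GFI1- cells. The 5 richest of the 39 ACE+GFI1+ cells held 55.5% of its reads. This contrast was part of the choice of members, and 1 of 5 measured members differed at least 2-fold, against 11.3% of genes. ACE+GFI1- cells had 33.1 CPM of Adgrg1, against 3.57 CPM in ACE-GFI1- cells, a log2 ratio of 3.22 (2.82 to 3.64). Adgrg3 was lower in ACE+GFI1- cells, with 3.56 CPM, against 205.2 CPM in ACE-GFI1- cells, a log2 ratio of -5.85 that was -6.79 with thinned cells and -6.91 by mean CPM per cell, and had reads in 4 ACE+GFI1- cells (3.45%, 0.947 to 8.59%), against 12 of 14 ACE-GFI1- cells. In ACE+GFI1+ cells it had 3.76 CPM, with a Poisson interval that overlapped that of ACE+GFI1- cells, but reads in 9 of 39 cells (23.1%, 11.1 to 39.3%), a higher share than in ACE+GFI1- cells. The log2 ratio between these sorts was 0.08 for the sums, while the mean CPM per cell was more than 2-fold higher in ACE+GFI1+ cells. The level of Adgrg3 was thus low in ACE+ cells with and without the GFI1 reporter, while Adgrg1 differed at both steps.

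CD97 also differed at the ACE step, with 165.1 CPM of Adgre5 in ACE+GFI1- cells, against 40.6 CPM in ACE-GFI1- cells, a log2 ratio of 2.02 (1.90 to 2.15). Adgrl4 had 209.7 CPM in ACE+GFI1- cells and 114.6 CPM in ACE-GFI1- cells, and Adgrf5 had 398 CPM in ACE+GFI1- and 316.7 CPM in ACE-GFI1- cells. Adgrl2 was 1.76-fold lower in ACE+GFI1- than in ACE-GFI1- cells (log2 ratio -0.82, -0.90 to -0.73), with 69.9 CPM in ACE+GFI1- cells. Of 6 members, 3 differed at least 2-fold between ACE+GFI1- and ACE-GFI1- cells, against 33.4% of genes, so the count does not set the members apart. The ACE-GFI1- group had only 14 cells, and each group was 1 sample.

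In Gfi1/Gfi1b KO HE at E10.5, Adgrg1 had 182.4 CPM, against 161.6 CPM in heterozygous HE. Reads were found in 35 of 42 KO cells (83.3%, 68.6 to 93%), against 75 of 95 heterozygous cells (78.9%, 69.4 to 86.6%). The log2 ratio of 0.17 (0.12 to 0.23) became -0.09 without erythroid-like cells, so no direction can be given. Adgrg3 was low in both, with 6.84 CPM in KO HE and 8.54 CPM in heterozygous HE, and its Poisson intervals overlapped. Adgrl4 had 133.9 CPM in KO HE, against 61.9 CPM in heterozygous HE (log2 ratio 1.11, 1.04 to 1.19), and Adgrl2 had 71.1 CPM in KO HE, against 37.7 CPM in heterozygous HE (0.92, 0.82 to 1.01). Without erythroid-like cells these ratios were 0.90 for Adgrl4 and 0.72 for Adgrl2. Adgrf5 with 280.3 CPM in KO HE and 300.1 CPM in heterozygous HE and Adgre5 with 46.2 CPM in KO HE and 58.8 CPM in heterozygous HE differed less. Past 2-fold was 1 of 6 members, against 17.1% of genes. Reads of Gfi1 itself stood at 218.9 CPM in KO HE and 55.2 CPM in heterozygous HE, and whether the counted exons lie outside the replaced part is not given in the sources used here, so these reads do not check the genotype.

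In the Runx1b line, Adgrg1 was low in HE of either title, with 18.1 CPM in titled KO HE and 23.9 CPM in heterozygous HE, and reads in 83 titled KO cells (30%, 24.6 to 35.7%) and 55 heterozygous cells (21%, 16.2 to 26.4%). Its log2 ratio of -0.41 (-0.47 to -0.34) became 0.12 without erythroid-like cells, but -0.77 among cells with at least 10 of 20 pan-endothelial genes. Adgrg3 had 18.5 CPM in titled KO HE, against 1.35 CPM in heterozygous HE, and reads in 51 titled KO cells (18.4%, 14 to 23.5%), against 10 heterozygous cells (3.82%, 1.85 to 6.91%). Its log2 ratio of 3.78 (3.58 to 3.98) was 2.97 among cells with at least 10 of 20 pan-endothelial genes. Of the 51 titled KO cells with Adgrg3, 17 also had reads of Adgrg1. Adgrf5, Adgrl4 and Adgre5 were 2.1-fold, 2.9-fold and 2.24-fold higher in titled KO HE than in heterozygous HE, with levels of 348.02, 149.4 and 165.4 CPM in titled KO HE. Among cells with at least 10 pan-endothelial genes these log2 ratios were -0.00 for Adgrf5, 0.46 for Adgrl4 and 0.19 for Adgre5, where all cells had 1.07, 1.54 and 1.17 and cells that were not erythroid-like 0.86, 1.31 and 0.95. Adgrl2 had 0.07, which was -0.16 without erythroid-like cells and 0.31 among cells with at least 10 pan-endothelial genes. The summed pan-endothelial markers had 20603 CPM in titled KO HE, against 8467 CPM in heterozygous HE, and their part in these ratios was not tested beyond that restriction. Past 2-fold were 4 of 6 members, against 15.8% of genes. Runx1 had 1.47 CPM in titled KO HE, against 17.8 CPM in heterozygous HE, and 1.15 CPM against 4.84 CPM among cells with at least 10 pan-endothelial genes.

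Both reporters define HE at E10.5, and Adgrg1 differed between them. RUNX1b-reporter HE had 23.9 CPM, against 161.6 CPM in GFI1-reporter HE, a log2 ratio of -2.76 (-2.81 to -2.70) that was -3.59 without erythroid-like cells and -2.72 among cells with at least 10 pan-endothelial genes. Adgrg3 had 1.35 CPM in RUNX1b-reporter HE, against 8.54 CPM in GFI1-reporter HE. The log2 ratio of Adgrf5 was -0.86, which was -1.03 without erythroid-like cells and -0.18 among cells with at least 10 pan-endothelial genes. Under that restriction Adgrl2 had 0.16 and Adgrl4 0.41, where all cells had 0.75 and -0.27. Past 2-fold were 2 of 6 members, against 17.8% of genes. The lines, the embryos and the reporters differ together here and cannot be told apart.

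Outside the endothelium, the Mes cells had little of most members. Adgrg3 had 0 reads in heterozygous Mes, where the intervals reach up to 0.0567 CPM and up to 3.39% of cells with a read. With the 0 reads set to 3, its level was 29.2-fold lower than the 1.35 CPM of heterozygous HE. That is a log2 ratio of -4.87, and the upper limit of its interval was -4.56. Adgrf5 had 15.9 CPM in heterozygous Mes, against 165.5 CPM in heterozygous HE, and its 5 richest Mes cells held 99.3% of those reads. Adgrl2 was the exception, with 83.3 CPM in Mes, against 63.4 CPM in HE, and reads in 61 Mes cells (57%). Adgrg1 had 11.6 CPM in Mes and 23.9 CPM in HE, a log2 ratio of -1.05 that was -0.71 without erythroid-like cells. Past 2-fold were 4 of 5 measured members, Adgrg1 among them, against 18.6% of genes. The pan-endothelial markers summed to 791.3 CPM in Mes, against 8467 CPM in HE.

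In Runx1b KO Mes, Adgrl2 had 106.5 CPM, against 83.3 CPM in heterozygous Mes, and reads in 68 KO cells (74.7%, 64.5 to 83.3%) and 61 heterozygous cells (57%, 47.1 to 66.5%). Adgrf5 had 60.4 CPM in KO Mes, against 15.9 CPM in heterozygous Mes, but only 14 KO cells (15.4%) and 6 heterozygous cells (5.61%) had reads. The pan-endothelial markers summed to 2934 CPM in KO Mes, against 791.3 CPM in heterozygous Mes. Adgrg1 had 6.21 CPM in KO Mes and 11.6 CPM in heterozygous Mes. Adgrl4 had 11.9 CPM in KO Mes and 18.8 CPM in heterozygous Mes, and Adgre5 16.9 CPM in KO Mes and 23.4 CPM in heterozygous Mes. The log2 ratio of -0.46 for Adgre5 was -1.23 by mean CPM per cell, past 2-fold, and thinned cells were also past 2-fold. The 17 reads of Adgrg3 in KO Mes came from 1 cell. Past 2-fold was 1 of 5 measured members, against 15.4% of genes.

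The E10.5 steps after HE were also compared as 1 group against 1. Adgrg1 was 3.97-fold higher in EHT than in HE (log2 ratio 1.99, 1.95 to 2.02, and 1.68 without erythroid-like cells), and 4.03-fold higher in the titled E11.5 cells, with 872.7 CPM in EHT and 216.3 CPM in HE. Between IAHC and EHT its log2 ratio was -0.07 (-0.10 to -0.03). Adgrg3 was 6.66-fold higher in EHT than in HE at E10.5 (log2 ratio 2.74, and 2.42 without erythroid-like cells) and 2.36-fold higher again in IAHC than in EHT. In the titled E11.5 cells it had 15.5 CPM in EHT and 2.45 CPM in HE, where the 42 reads came from 3 cells, and the log2 ratio of 2.66 was 4.70 with thinned cells and 3.53 by mean CPM per cell. Without erythroid-like cells the E10.5 ratios of EHT over HE for Adgrf5, Adgrl2 and Adgrl4 were -1.30, -1.26 and -0.08, where all cells had -0.90, -0.88 and 0.32. Adgrl4 was 2.91-fold higher in IAHC than in EHT, while Adgrf5 was 4.49-fold, Adgrl2 2.95-fold and Adgre5 3.86-fold lower in IAHC. Past 2-fold were 2 of 6 members for EHT over HE at E10.5, against 23.6% of genes, 3 of 6 in the titled E11.5 cells, against 33.3%, and 5 of 6 for IAHC over EHT, against 15.8%.

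**Figure D4:**
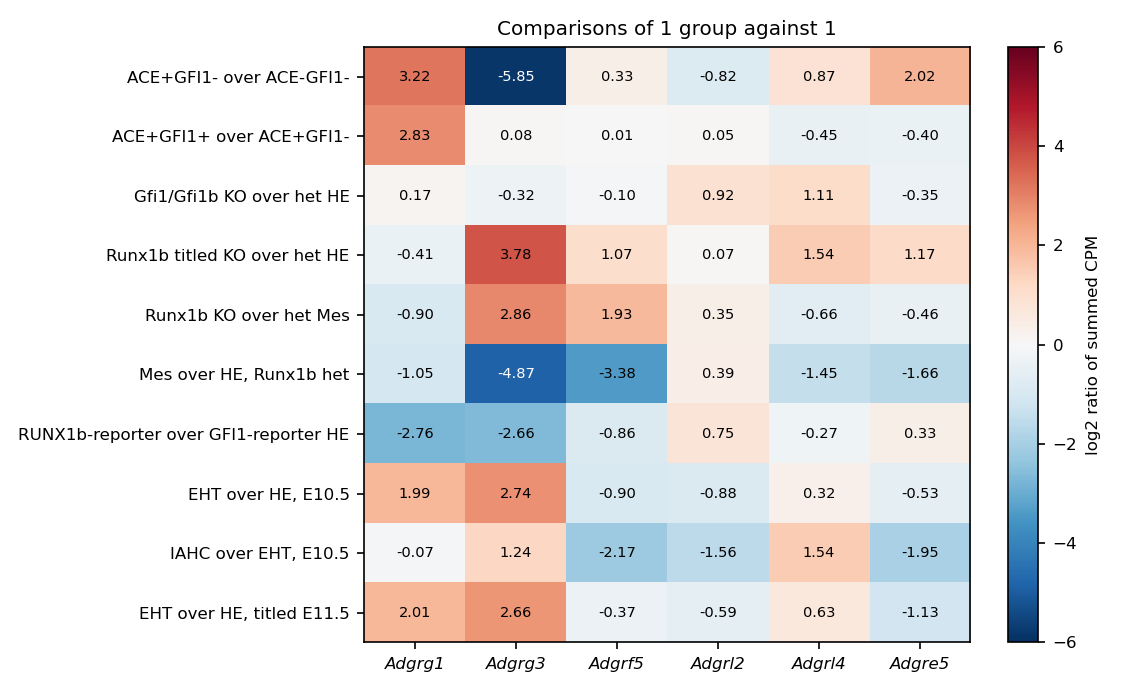
Log2 ratio of the summed CPM of each gene in 10 comparisons of 1 group against 1, written in each cell and coloured from blue (lower in the first named group) to red (higher). Adgrg1 and Adgrg3 have ratios of 1.99 and 2.74 for EHT over HE at E10.5, and Adgrg3 has -5.85 for ACE+GFI1- over ACE-GFI1-.

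To set these differences against the spread between sets, the KIT+CD41+ cells (EHT and IAHC) were tested against HE in 3 sets of the Gfi1/Gfi1b heterozygous line with edgeR's quasi-likelihood test, with the set as a block. The KIT+CD41+ cells were EHT and IAHC together at E10.5, IAHC alone at E11.5 and EHT alone in the titled E11.5 set. Differences between sets in stage and in the kind of KIT+CD41+ cell can therefore not be told apart, and the sets do not repeat 1 contrast. HE sums also entered the contrast that named the members. A low Adgrg3 level and a high Adgrg1 level in HE were thus part of the choice. A p-value of Adgrg1 in this comparison is therefore no independent support. Adgrg1 had 625 CPM in KIT+CD41+ cells and 161.6 CPM in HE of the E10.5 set. It had 272.8 CPM in KIT+CD41+ cells and 348.5 CPM in HE at E11.5, and 872.7 CPM in KIT+CD41+ cells and 216.3 CPM in HE of the titled E11.5 set. It was higher in KIT+CD41+ cells in 2 of 3 sets, and at E11.5 the log2 ratio of -0.35 became 1.13 without erythroid-like cells. The fitted log2 difference was 1.48 ± 0.30 (SE, 3 sets), with an edgeR adjusted p of 0.2002.

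Adgrg3 had 99.5 CPM in KIT+CD41+ cells and 8.54 CPM in HE at E10.5. It had 23.9 CPM in KIT+CD41+ cells and 5.18 CPM in HE at E11.5, and 15.5 CPM in KIT+CD41+ cells and 2.45 CPM in HE of the titled E11.5 set. It was higher in all 3 sets, with a fitted log2 difference of 3.08 ± 0.36 (SE, 3 sets). Since its low HE level named it, this is a description and no p is given. Adgre5, Adgrl2 and Adgrf5 were lower in all 3 sets. Their fitted log2 differences were -1.29 ± 0.21 for Adgre5, -1.50 ± 0.47 for Adgrl2 and -1.10 ± 0.35 for Adgrf5, with edgeR adjusted p values of 0.1554, 0.3351 and 0.3391. Adgrl4 had a fitted log2 difference of 0.80 ± 0.21 with an edgeR adjusted p of 0.2782, and was higher in 2 of 3 sets, where the log2 ratio of -0.41 at E11.5 became 1.17 without erythroid-like cells. Without those cells the E11.5 ratios were -0.72 for Adgrf5, -5.00 for Adgrl2 and -0.77 for Adgre5, where all cells had -2.04, -3.17 and -2.28. The -5.00 rests on 1 IAHC cell with reads, and it was -1.70 among cells with at least 10 pan-endothelial genes. None of the 6 passed the adjusted threshold of 0.05, nor did any of the 16625 genes tested (0.0%), of which 2061 had an unadjusted p under 0.05. DESeq2 on the same sums called 2137 of the 21871 genes it tested (9.77%), among them the members other than Adgrg3. Adgrg3 is not counted as a member called, since its low HE level named it. Without the E11.5 set, where 14 of 22 IAHC cells were erythroid-like, edgeR called 1.25% of 15311 genes. Adgrg1 then had a log2 difference of 1.81 ± 0.18 and an edgeR adjusted p of 0.03764. That fit leaves out the set in which Adgrg1 was lower in KIT+CD41+ cells, and no call is drawn from it. Over the alternatives its adjusted p ranged from 0.000118 with DESeq2 to 0.7263 with edgeR without the titled E11.5 set.

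E11.5 was compared with E10.5 over the Endo, HE and IAHC gates of the same line, with the gate as a block. In HE, Adgrg1 had 348.5 CPM at E11.5 and 161.6 CPM at E10.5, and in Endo 0.0444 CPM at E11.5 and 4.1 CPM at E10.5. In IAHC it had 272.8 CPM at E11.5 and 612.1 CPM at E10.5, but 767.8 CPM in the 8 E11.5 cells that were not erythroid-like. For Adgrg3 and Adgrl4 the IAHC ratios of -2.49 and -1.63 became -0.88 and -0.05 without erythroid-like cells, and those of Adgrf5 and Adgre5, 1.03 and 1.09, became 2.35 and 2.60. Adgrl2 had -0.48, which became -2.30, with reads in 1 of those 8 E11.5 cells. Among cells with at least 10 pan-endothelial genes its ratio was 0.94, so no direction can be given. The fitted log2 difference of Adgrg1 was -0.98 ± 1.57 (SE, 3 gates), with an edgeR adjusted p of 0.918. The other members had edgeR adjusted p values between 0.7774 and 0.9473, with log2 differences between -0.70 ± 0.43 for Adgrg3 and 0.94 ± 0.52 for Adgre5. None of 16225 genes passed with edgeR (0.0%), 925 had an unadjusted p under 0.05, and DESeq2 called 500 of 21661 (2.31%). Both tests rest on 6 sums with 2 residual degrees of freedom, and their p-values measure the spread between sets or gates, not between embryos.

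**Figure D5:**
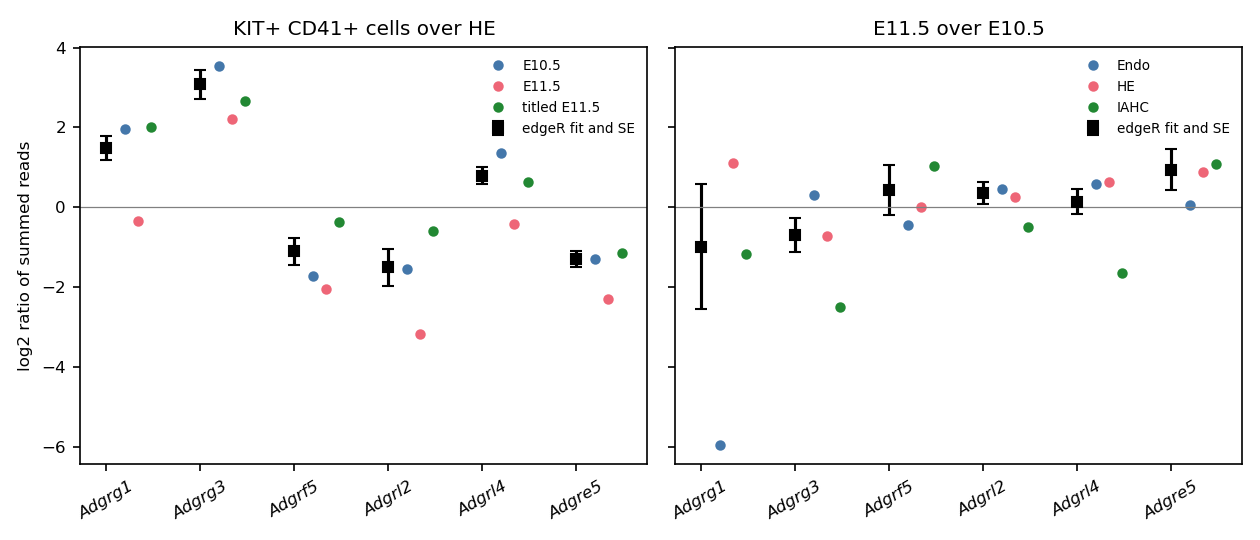
Log2 ratio of each gene in each of 3 sets (KIT+CD41+ cells over HE, left) and each of 3 gates (E11.5 over E10.5, right) as coloured points, with the edgeR estimate and its standard error as a black square and bar. On the left Adgrg3 is above 0 and Adgrf5, Adgrl2 and Adgre5 are below 0 in all 3 sets, and on the right the 3 points of Adgrg1 lie at -5.95, 1.11 and -1.17.

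In all, 10 of the 24 other adhesion GPCR genes reached 10 CPM in a group. Adgrg6 (GPR126), known from Schwann cell myelination and binding of collagen IV, had more in HE than in Endo in each set. It had 70.6 CPM in HE and 10.8 CPM in Endo at E10.5, 107.4 CPM in HE and 38.3 CPM in Endo at E11.5, 73.1 CPM in HE and 43.3 CPM in Endo of the titled E11.5 cells, 106.5 CPM in ACE+GFI1+ and 7.41 CPM in ACE-GFI1- cells, and 71.9 CPM in HE and 6.54 CPM in Endo of the Runx1b line. Unlike Adgrg1 it had 107.7 CPM in ACE+GFI1- cells, and it was low after HE, with 5.58 CPM in EHT and 0 CPM in IAHC at E10.5. Adgra2 (GPR124), a coreceptor of Wnt7 signals in brain vessels, Adgra3 and Adgrl1 (latrophilin-1) were found in all E10.5 sorts, with 51.5, 62.5 and 48 CPM in HE and 62.8, 67.8 and 18.2 CPM in Endo. Adgrg5, the other neighbour of Adgrg1, reached 26.8 CPM in titled E11.5 EHT and 13.1 CPM in E10.5 IAHC and had 0 CPM in the 3 Endo groups of that line. Adgre1, which encodes the macrophage marker F4/80, reached 20.6 CPM in titled E11.5 EHT, where macrophage and granulocyte markers summed to 888.5 CPM. Celsr1 reached 23.5 CPM in E11.5 HE, and Adgrl3, Adgrv1 and Adgrb3 peaked in heterozygous Mes with 19.5, 13.9 and 10.3 CPM. Of the 11 tested for KIT+CD41+ cells over HE, 0 passed with edgeR and 3 had an unadjusted p under 0.05, all lower, with a median log2 difference of -0.93, against 0.05 over all genes tested.

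Of 27 listed binding partners and signal carriers of these receptors, 23 reached 10 CPM. Tgm2, the transglutaminase that binds GPR56, had 143.1 CPM in HE and 52.1 CPM in Endo at E10.5, and 274.4 CPM in ACE+GFI1+ and 49.1 CPM in ACE-GFI1- cells. At E11.5 it had 227.4 CPM in HE and 40.3 CPM in Endo, but the titled E11.5 cells had 194.7 CPM in HE and 153.9 CPM in Endo, and the Runx1b line had 37.1 CPM in HE and 43.4 CPM in Endo. It had 144.3 CPM in EHT and 20.8 CPM in IAHC at E10.5. Col3a1, the collagen that GPR56 binds in brain, was at its highest in KO Mes with 2362 CPM, had 34 CPM in HE and 3.63 CPM in Endo at E10.5, and stood at 1560 CPM in Runx1b heterozygous HE beside the other mesenchyme markers. Flrt2, a ligand of latrophilins, had 25.8 CPM in HE and 116.9 CPM in Endo at E10.5, and 26.8 CPM in ACE+GFI1+ and 238.04 CPM in ACE-GFI1- cells, the same side as Adgrl2. Tenm3 and Tenm4, teneurins that latrophilins bind, were highest in heterozygous Mes with 83.8 and 75.4 CPM, and Flrt3 in KO Mes with 92.1 CPM. Arhgef12 and Arhgef11 encode exchange factors that link G12/13 proteins to RhoA. In the order Endo, HE, EHT, IAHC at E10.5, Arhgef12 had 68.2, 45.1, 19.1 and 5.69 CPM and Arhgef11 had 22.3, 14.2, 4.56 and 2.41 CPM, opposite to the course of Adgrg1. Both were named for their wide range over these sorts. In the same order Arhgef1 had 161.7, 151.5, 120.3 and 128.3 CPM and Rhoa 208.4, 155.6, 188.4 and 162.98 CPM. Gna12 had 84.4, 54.8, 68 and 42.4 CPM and Gna13 49, 34.8, 53.8 and 54.9 CPM. These other genes of the path did not fall at each step. Of the 23 tested for KIT+CD41+ cells over HE, 0 passed with edgeR and 6 had an unadjusted p under 0.05, all lower, with a median log2 difference of -0.74. For E11.5 over E10.5, 0 of 12 other adhesion GPCR genes and 0 of 23 partners passed with edgeR, and 0 and 1 had an unadjusted p under 0.05.

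The genes whose level ran most like that of Adgrg1 were found by Pearson's r of log2(CPM + 1) over the 19 groups, among 10131 genes with at least 20 CPM in some group. They were Tnfaip8 (r = 0.932), Dok2 (0.926), Selplg (0.922), Ikzf2 (0.917) and Hlf (0.912). Selplg encodes the selectin ligand PSGL-1 of leukocytes, Ikzf2 the transcription factor Helios and Hlf a transcription factor known from blood stem cells. Hlf had 0.0249 CPM in E10.5 Endo and 15.4 CPM in HE, and the EHT level of 65.1 CPM lay below the 104.2 CPM of IAHC. With Gfi1 r was 0.90, with Runx1 0.86, and with Ace 0.06. Adgrg1 was named in part for its higher level with the GFI1 reporter, on which many of these groups were sorted. A high r with Gfi1 was thus part of the choice. Most like Adgrg3 were Mmrn1 (r = 0.938), Hmgn5 (0.882), Pik3r6 (0.857), Cnr2 (0.853) and Lipt2 (0.832). Mmrn1, the multimerin gene, was also lowest in HE, with 204.3, 20.7, 45.3 and 70.5 CPM in Endo, HE, EHT and IAHC at E10.5, though its IAHC level stayed below that of Endo. Adgrg1 and Adgrg3 had an r of -0.16 with each other, Adgrg3 and Adgrl4 of 0.60, and Adgrg1 and Adgrl2 of -0.79. Groups share reporter lines, embryos and depth, so these are descriptions of 19 sums and carry no p.

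Ordered over all groups, Adgrg1 was highest in titled E11.5 EHT, E10.5 EHT and E10.5 IAHC. Poisson intervals of neighbours in its order did not overlap, except those of E10.5 Endo with 4.1 CPM and ACE-GFI1- with 3.57 CPM. These intervals take PCR copies as separate reads and leave out the spread between cells, so they do not settle the order. Adgrg3 was highest in Runx1b Endo with 213.5 CPM and ACE-GFI1- with 205.2 CPM, whose intervals overlapped, and its HE and ACE+ groups filled places 11 to 17 of 19 with 1.35 to 8.54 CPM, apart from titled KO HE at place 9. Adgrf5 was highest in ACE+GFI1+ with 399.7 CPM and lowest in heterozygous Mes. Adgrl2 was highest in E11.5 Endo with 141.7 CPM and lowest in E11.5 IAHC with 4.97 CPM. Adgrl4 was highest in E10.5 IAHC with 224.8 CPM and lowest in KO Mes. Adgre5 was highest in titled KO HE with 165.4 CPM and in ACE+GFI1- cells with 165.1 CPM, whose intervals overlapped, and lowest in E10.5 IAHC.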

How the data were processed

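The authors deposited counts of reads per gene and cell in 2 tables, without normalization, as whole numbers with differing totals show. Single cells were sorted into wells and amplified by a modified Smart-seq2 method, per the labels' protocols. Per the submitters' processing notes, the genome build was GRCm38, and HTSeq 0.6.1p1, STAR 2.4.2a, bcl2fastq and R 3.6.2 were used. Strand setting, cell filters and annotation release were not given in the sources used here. Molecular identifiers are absent from Smart-seq2 reads, and PCR copies are thus counted too. Cells are sort gates, no clusters were made, no doublet caller was run and the main values use every cell.

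Analysis kept the 36131 genes held whole in both tables, which left out 10.1% of the reads of the ACE table. The larger table, as held here, breaks off inside a row. Reads were summed per group and divided by the group total (CPM). In ratios, sums below 3 reads were raised to 3. In comparisons of 1 group against 1, genes with at least 5 CPM in either group were counted, past 2-fold, with no p-value. edgeR 4.0.16 in R 4.3.3 (TMM, filterByExpr, quasi-likelihood F-test, Benjamini-Hochberg adjustment over all genes tested, threshold 0.05) was run on 6 sums for each of 2 comparisons, with the set or gate as a block. The tests were also run on simulated counts drawn without differences between sets or gates, so that run does not show how they perform on these sums. Alternatives were DESeq2 1.42.0, edgeR's RLE scaling, no filter on low counts, no replicate block, cells thinned to 100000 reads (51 cells left out), limma 3.58.1 on log2(mean per-cell CPM + 1), cells without at least 1% of reads in globin genes, cells with at least 10 of 20 pan-endothelial genes, each set or gate left out in turn, stages from the titles, and leaving out 13 cells with misspelt titles. Titles and stage fields disagreed for 126 cells.

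The members and gene lists were chosen with earlier results of these data known. Named beside the members were other adhesion GPCR genes reaching 10 CPM in a group, at most 8 of the partners reaching 10 CPM (those with the widest range over the E10.5 sorts), the 5 genes most like Adgrg1 and the 5 most like Adgrg3, and the genes of the gates. Arhgef1, Rhoa, Gna12 and Gna13 were added to the partners as further genes of the RhoA path. The likeness left out mitochondrial and ribosomal protein genes, pseudogenes, predicted genes and sex-linked markers. Cell type lists held 20 pan-endothelial, 10 blood, 11 erythroid, 12 mesenchyme, 10 macrophage and granulocyte and 8 neural crest and neural markers, of which blood markers summed to 2507 CPM in E10.5 IAHC, and neural markers reached 39 CPM in KO Mes.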

Additional observations from a re-analysis of the deposited data

Results flagged for a closer look

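Adgrg1 had stage ratios of opposite sign in different gates. Its log2 ratio of E11.5 over E10.5 was 1.11 in HE, -5.95 in Endo, where only 2 reads were found at E11.5 and 3 reads were used in the ratio, and -1.17 in IAHC. The difference between the gates was not tested, since each gate had 1 sample per stage. Without erythroid-like cells the ratio was 0.80 in HE, -5.95 in Endo and 0.33 in IAHC. With cells thinned to 100000 reads it was 0.86 in HE, -0.42 in Endo and -0.99 in IAHC. The thinned Endo ratio rests on 0 reads in 14 E11.5 cells, raised to 3 reads, so it gives no size of the difference. A sample far from the others was looked for in 18 groups of values, and 0 were found.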

How the results depend on the processing

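For KIT+CD41+ cells over HE, edgeR with the set as a block called 0 of 16625 genes. The share of genes called was 9.77% with DESeq2, 3.35% with thinned cells, 0.198% with no replicate block, 0.0662% with limma, 0.0186% among cells with at least 10 pan-endothelial genes and 0.0124% without erythroid-like cells. It ranged from 0 to 1.25% as sets were left out, with 1.25% without the E11.5 set. Members other than Adgrg3 passed as follows, with log2 differences. DESeq2 gave 1.44 for Adgrg1, -1.14 for Adgrf5, -1.54 for Adgrl2, 0.76 for Adgrl4 and -1.33 for Adgre5. Thinned cells gave 1.62 for Adgrg1. For Adgrg3, which is only described because its low HE level named it, the log2 difference was 3.06 with DESeq2 and 3.76 with thinned cells. Leaving out sets gave 1.24 to 1.81 for Adgrg1, with 1.81 without the E11.5 set, where it had been lower in KIT+CD41+ cells. The HE level of Adgrg1 was part of the choice too, so its passing in a fit is no independent support. No replicate block, fitted without the set as a pairing, gave 1.44 for Adgrg1 and no member passed.

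For E11.5 over E10.5, DESeq2 called 2.31% of genes and all other alternatives 0. Directions of members turned in several fits, where none passed the threshold. No replicate block gave 0.20 for Adgrg1 and -0.05 for Adgrf5. Stages from the titles gave 0.76 for Adgrg1. Without erythroid-like cells Adgrl2 had -0.58, and limma gave -0.09 for Adgrl2 and -0.28 for Adgrl4. As gates were left out, Adgrg1 ranged from -2.52 to 0.39, Adgrf5 from -0.30 to 0.93 and Adgrl4 from -0.09 to 0.52. The causes were not tested.

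Each mean log2 ratio of HE over Endo stayed within 1 SD over the sets under its alternatives, although that of Adgrf5 changed sign. For Adgrg1 the SD was 4.99 on a mean of 5.97, so staying within it says little. Of the values in the comparisons of 1 group against 1, 40.8% stayed inside the counting interval, 58.8% lay outside it, and 1 value past 2-fold changed sign, that of Adgrf5 in titled KO over heterozygous HE, which was -0.00 among cells with at least 10 pan-endothelial genes.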
